A study of Mus musculus with 8 samples.

Results

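Differences in gene expression between Nap1l2-shRNA and control cells were examined after 7 days of osteogenic induction, in 4 of the 8 RNA-seq libraries of the series. Of the 18605 genes in the count table, 13470 had enough reads to be tested, and all of these were compared. The cells were C3H10T1/2, an established mouse embryonic mesenchymal stem cell line of strain C3H. The group KD-Nap1l2-7d carried a lentiviral shRNA against Nap1l2 and the group NC-7d a non-target control virus, and both were kept for 7 days in osteogenic medium with dexamethasone, ascorbic acid and β-glycerol phosphate. The groups KD-Nap1l2 and NC held the same cells at 0 days, before induction. Each group had 2 libraries, and nothing in the labels says whether these came from separate cultures. All groups thus shared the cell line and a virus that also expresses EGFP and puromycin resistance, and both groups of day 7 shared the dexamethasone. Several shRNAs against Nap1l2 are listed by the study, and which of them was used for these libraries is not given in the sources used here.

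NAP1L2 belongs to the nucleosome assembly protein family, histone chaperones that hand histones to DNA. C3H10T1/2 cells can be driven toward bone, fat, cartilage or muscle-like fates by the medium or by added factors. In osteogenic cultures, transcription factors such as RUNX2, SP7 and ATF4 act upstream of matrix genes, and IGF, Wnt and BMP ligands are known to regulate the process. Stressed and senescent mesenchymal cells are known to secrete cytokines, chemokines and growth factors, many of them under the transcription factor NF-κB. The comparison addressed which genes differ with the Nap1l2 shRNA in cells that have been given osteogenic medium.

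The 4 libraries of day 7 held between 17420284 and 18578600 counts, so sequencing depth was similar in both groups. Nap1l2 itself (NCBI gene 17954) had counts of 15 and 5 in NC-7d, and the libraries labelled KD-Nap1l2-7d held 7 and 13. The groups overlapped, so a lower level of the targeted transcript was not detectable at this depth, and the groups are called by their labels throughout. Markers of mesenchymal stromal cells were abundant, with summed levels of 3597 to 4902 FPKM (fragments per kilobase of transcript, scaled to library depth). Markers of endothelial cells summed to 0.54 to 0.94 FPKM, of epithelial cells to 0.56 to 2.88 FPKM and of blood cells and macrophages to 4.33 and 4.2 FPKM in NC-7d and 6.33 and 9.39 FPKM in KD-Nap1l2-7d. Nearly all of this sum was Cd68, with 82 and 90 counts against 128 and 196, while Ptprc, which defines blood cells, had at most 1 count, and its part in the results on inflammatory genes was not tested. Osteoblast markers summed to only 3.22 to 7.04 FPKM, and adipocyte markers to 138.8 to 181.3 FPKM through Fabp4, with Adipoq and Plin1 near 0. The NC-7d libraries stood further apart from each other than the KD-Nap1l2-7d libraries. Of 11280 well-counted genes, 518 (4.59%) differed by more than 2-fold between the NC-7d libraries and 53 (0.47%) between the KD-Nap1l2-7d libraries. In such bulk samples, fewer cells of a type and less RNA per cell cannot be told apart.

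None of the differences between the groups passed the adjusted threshold. In all, 0 of 13470 genes (0%) reached an adjusted p-value of 0.05 by the quasi-likelihood test of edgeR (Benjamini-Hochberg adjustment), where the smallest adjusted p was 0.443. At an unadjusted p-value under 0.05, 501 genes (3.72%) were higher and 556 genes (4.13%) lower in KD-Nap1l2-7d. Both KD-Nap1l2-7d libraries lay above both NC-7d libraries in 2831 genes (21.0%) and below both in 2834 genes (21.0%). A fold change above 2 was seen for 277 genes in the higher and 241 genes in the lower direction, and the median log2 fold change over all genes tested was -0.0056. DESeq2's Wald test called 79 genes, 35 higher (0.276% of the 12686 genes it gave an adjusted p) and 44 lower (0.347%), and all 79 had an unadjusted p-value under 0.05 by edgeR. The counts of genes given below for each group are read against these shares.

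**Figure D1:**
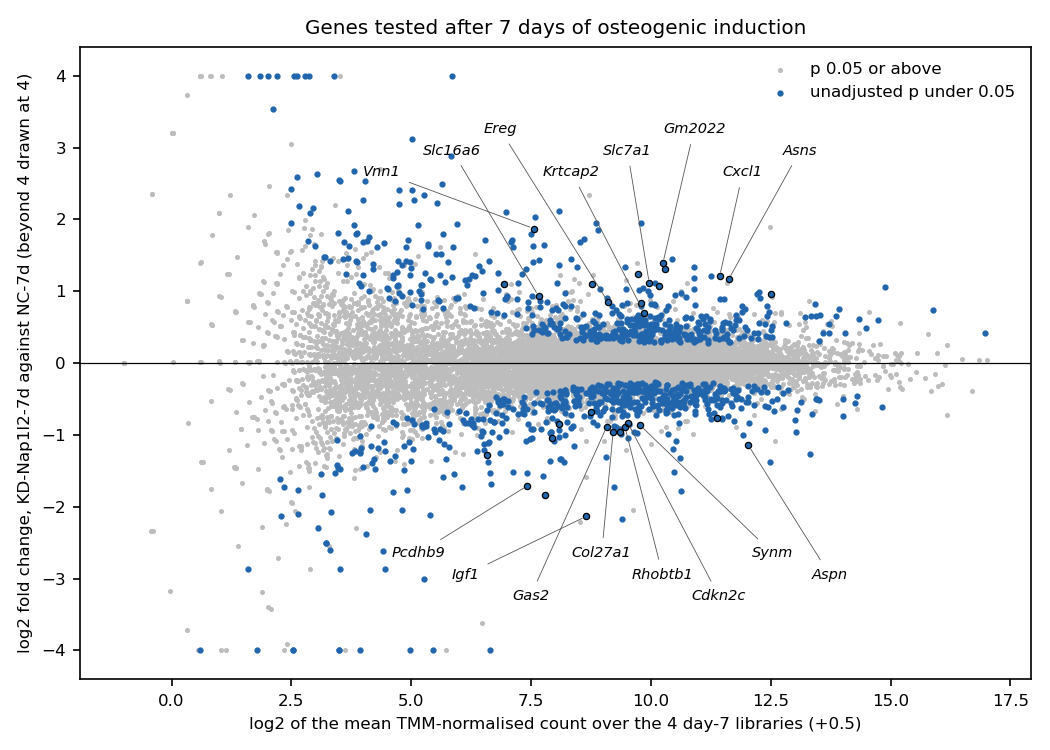
Log2 fold change of KD-Nap1l2-7d against NC-7d (vertical axis) plotted against the log2 of the mean normalized count over the day 7 libraries (horizontal axis) for the 13470 genes tested. Genes at an unadjusted p-value under 0.05 are in colour (501 higher, 556 lower), and the largest fold changes are drawn at a fixed limit. The points lie evenly around 0, and none passed the adjusted threshold.

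The 15 genes with the smallest p-values among those that were higher in KD-Nap1l2-7d included Cxcl1, Krtcap2, Ereg, Asns and Atf4. Cxcl1 (NCBI gene 14825), a chemokine that attracts neutrophils, had 1445 and 1897 normalized counts (counts scaled to a common library size) in NC-7d and 4387 and 3332 in KD-Nap1l2-7d. Both KD-Nap1l2-7d libraries thus lay well above both controls, with a log2 fold change of 1.21 ± 0.19 (SE; unadjusted p = 2e-04). Ereg, which encodes the EGF receptor ligand epiregulin, had 379 and 401 counts against 784 and 628, a log2 fold change of 0.86 ± 0.15. Ptgs2, the inducible cyclooxygenase of prostaglandin synthesis, had 470 and 545 counts against 1481 and 904, a log2 fold change of 1.23 ± 0.27. These 3 genes encode ligands or make mediators that act on other cells. Asns, asparagine synthetase, had 2341 and 1543 counts in NC-7d and 5039 and 3676 in KD-Nap1l2-7d. Slc7a1, which imports cationic amino acids, had 717 and 548 counts against 1657 and 1074. The log2 fold changes of Asns and Slc7a1 were 1.17 ± 0.23 and 1.11 ± 0.22, and in both genes the 2 groups did not overlap. Atf4 (NCBI gene 11911), a stress-induced transcription factor that controls amino acid supply and has a role in osteoblasts, had 4481 and 3397 counts against 8937 and 6381. Its log2 fold change was 0.96 ± 0.21.

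Several enzymes and membrane proteins were also among the 15 genes that were higher with the smallest p-values. Vnn1, a pantetheinase, had 101 and 60.4 counts in NC-7d and 357 and 232 in KD-Nap1l2-7d (log2 fold change 1.87 ± 0.36). Cyb5r1, a cytochrome b5 reductase, had 849 and 589 counts against 2012 and 1544, a log2 fold change of 1.31 ± 0.28. Havcr2, the immune receptor TIM-3, and Tnfrsf23, a decoy receptor of the TNF receptor family, had log2 fold changes of 1.10 ± 0.23 and 1.09 ± 0.23. Krtcap2, a subunit of the oligosaccharyltransferase complex, had one of the most even differences, with 706 and 711 counts against 1188 and 1109 (log2 fold change 0.70 ± 0.11). The remaining 4 were Serpina3m, Slc16a6, Rhbdd1 and Gm2022, with log2 fold changes between 0.84 and 1.39. Gm2022 and Serpina3m belong to families of near-identical copies between which the counting can split reads, so their values are uncertain.

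Among the genes that were lower in KD-Nap1l2-7d, those with the smallest p-values included a growth factor of bone, matrix components and cytoskeletal proteins. Igf1 (NCBI gene 16000), insulin-like growth factor 1, had 483 and 820 normalized counts in NC-7d and 126 and 170 in KD-Nap1l2-7d. Its log2 fold change was -2.14 ± 0.35 (unadjusted p = 0.000298), the largest of the 15, and the higher KD-Nap1l2-7d library was still below the lower control. Aspn (NCBI gene 66695), a small leucine-rich proteoglycan that binds collagen, had 6232 and 5246 counts against 2479 and 2733, a log2 fold change of -1.14 ± 0.17 (unadjusted p = 0.000137). Col27a1, a fibrillar collagen chain of cartilage, had 810 and 754 counts against 372 and 432, a log2 fold change of -0.96 ± 0.17. Synm (NCBI gene 233335), the intermediate filament protein synemin, had 1183 and 1076 counts against 616 and 624. Its log2 fold change of -0.86 ± 0.12 had the smallest p-value of all genes (unadjusted p = 9.32e-05). Gas2, an actin and microtubule binding protein, had 770 and 631 counts against 359 and 398 (log2 fold change -0.89).

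Others of the 15 encode enzymes, cell cycle and signalling proteins. Adh1, an alcohol dehydrogenase that also oxidizes retinol, had 379 and 311 counts in NC-7d and 73.2 and 119 in KD-Nap1l2-7d (log2 fold change -1.84 ± 0.35). Dact1, a Dishevelled-binding regulator of Wnt signalling, had 107 and 161 counts against 54.1 and 56.4 (log2 fold change -1.28). Cdkn2c, an inhibitor of the cyclin-dependent kinases of early G1, had 915 and 968 counts against 472 and 582 (log2 fold change -0.84). Runx1t1, a transcriptional corepressor, had a log2 fold change of -1.04. The clustered protocadherins Pcdhb9 and Pcdhb14, cell adhesion molecules of a tandem family whose reads may be shared between neighbours, had log2 fold changes of -1.71 and -0.85. Tmem44, Ttyh3 and Dapk1 were also among the 15, with log2 fold changes between -0.96 and -0.69. All 30 of these genes had an adjusted p-value of 0.443 by the quasi-likelihood test of edgeR (Benjamini-Hochberg adjustment), and all except Havcr2 and Dapk1 were called by DESeq2. They had been selected for groups that do not overlap, so that separation is not a result about them.

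**Figure D2:**
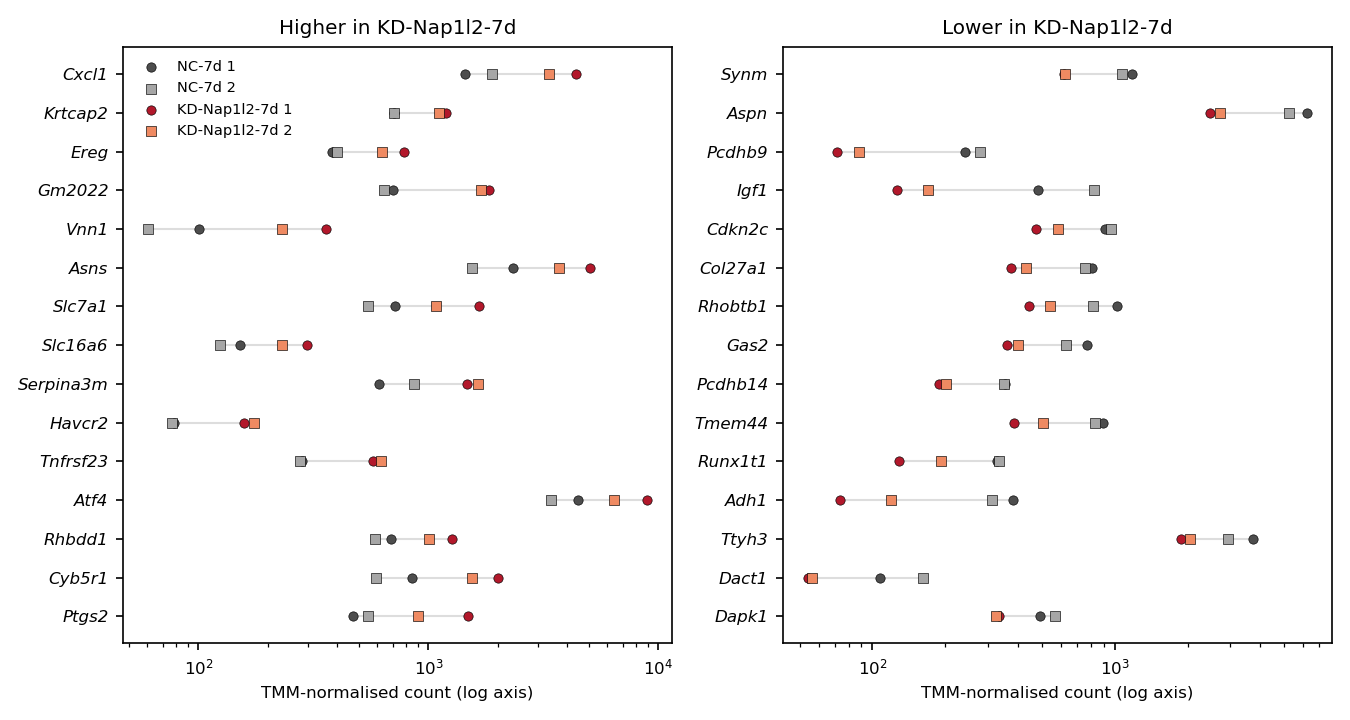
Normalized counts (log axis) in each of the 4 libraries of day 7 for the 15 genes that were higher and the 15 genes that were lower in KD-Nap1l2-7d with the smallest p-values, 1 point per library. By the selection the groups do not overlap, and Igf1 spans the widest distance among the lower genes.

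The gene list with the highest median log2 fold change was the Atf4 and amino acid response. The lists were chosen with earlier results of these data known, so this rank is a description and not a test. ATF4 is translated when the kinases of the integrated stress response act on eIF2, and it binds CARE elements (composite sites of the C/EBP and ATF families) in front of genes for amino acid transport, amino acid synthesis, tRNA charging and further stress factors. Of 48 tested members, 45 were higher in KD-Nap1l2-7d, 35 of them at an unadjusted p-value under 0.05 (against 3.72% of all genes tested) and 0 lower at that level. The median log2 fold change was 0.79, against -0.0056 over all genes. In 45 of the 48 members both KD-Nap1l2-7d libraries lay above both NC-7d libraries (21.0% of all genes), and 10 members were called higher by DESeq2. Adjusted over all genes tested by edgeR's quasi-likelihood test, 0 members passed. The median log2 level of the list, as a deviation from its mean over the libraries, was -0.16 and -0.57 in NC-7d and 0.60 and 0.19 in KD-Nap1l2-7d. Replicate 1 lay above replicate 2 by a median log2 difference of 0.34 in NC-7d and 0.45 in KD-Nap1l2-7d. The members thus moved together and are not independent observations. Leaving out 1 library of day 7 at a time kept the median between 0.55 and 0.95. Fewer members had an unadjusted p-value under 0.05 without NC-7d replicate 2 or KD-Nap1l2-7d replicate 1, where fewer of all genes tested did too.

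The most abundant members by FPKM were Atf4, Slc3a2 and Nupr1. Slc3a2, the heavy chain shared by several amino acid exchangers, had 5781 and 5799 counts in NC-7d and 9302 and 7814 in KD-Nap1l2-7d (log2 fold change 0.56 ± 0.15). Nupr1, a stress-induced chromatin protein, had 1511 and 683 counts against 2960 and 1780 (log2 fold change 1.11 ± 0.49). Slc3a2 was separated by group, as was Nupr1, whose controls differed widely from each other. A further 6 members were chosen after their values were seen. Atf3, a transcription factor induced downstream of ATF4, had 127 and 76.7 counts in NC-7d and 267 and 275 in KD-Nap1l2-7d (log2 fold change 1.41 ± 0.31). Chac1, which degrades glutathione, had 299 and 79.6 counts against 935 and 524 (log2 fold change 1.96 ± 0.52). Pck2, the mitochondrial phosphoenolpyruvate carboxykinase, had 1316 and 1184 counts against 3173 and 1924 (log2 fold change 1.03 ± 0.24). Slc7a11, the cystine importer, had 165 and 40.3 counts against 483 and 398 (log2 fold change 2.11 ± 0.72). In each of these 4 genes the controls lay below both KD-Nap1l2-7d libraries, and NC-7d replicate 2 was the lowest. Trib3 and Ddit3, a pseudokinase and the transcription factor CHOP, had log2 fold changes of 1.96 ± 0.56 and 1.21 ± 0.44. The 3 members that were lower were Slc7a3, Slc38a2 and Cbs, at -0.82, -0.26 and -0.35.

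The sequence in front of these genes was searched for the CARE element, written TGATGNAA and matched on both strands in windows from 250 bases before to 50 bases after each gene start (RefSeq, GRCm38.p6). Windows were found for 40 of the 48 members, and 17 of these 40 genes (42.5%) held a match. A match was held by 318 of 10651 tested genes with a window (2.99%) and by 1219 of 27025 genes over all promoters (4.51%). The list holds known ATF4 targets, so the difference in shares is a description of the list and not of these libraries. The 200 bases before the gene start are shown for 5 members that were higher, chosen because they hold a match, with the match in capitals and each sequence written 5′ to 3′ on the strand of its gene.
Asns, chr6:7693210-7693409, minus strand: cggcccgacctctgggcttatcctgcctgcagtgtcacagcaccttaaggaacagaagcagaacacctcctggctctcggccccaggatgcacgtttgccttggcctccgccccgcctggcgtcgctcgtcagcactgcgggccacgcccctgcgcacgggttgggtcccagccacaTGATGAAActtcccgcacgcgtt
Atf3, chr1:191183334-191183533, minus strand: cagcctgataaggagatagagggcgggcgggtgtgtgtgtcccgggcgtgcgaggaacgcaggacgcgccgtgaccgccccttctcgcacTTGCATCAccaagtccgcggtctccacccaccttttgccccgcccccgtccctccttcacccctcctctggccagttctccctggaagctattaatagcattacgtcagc
Chac1, chr2:119351042-119351241, plus strand: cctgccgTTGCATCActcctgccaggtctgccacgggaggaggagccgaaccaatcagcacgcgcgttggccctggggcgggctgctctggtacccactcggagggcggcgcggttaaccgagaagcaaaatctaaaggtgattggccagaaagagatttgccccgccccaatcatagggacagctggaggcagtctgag
Pck2, chr14:55540066-55540265, plus strand: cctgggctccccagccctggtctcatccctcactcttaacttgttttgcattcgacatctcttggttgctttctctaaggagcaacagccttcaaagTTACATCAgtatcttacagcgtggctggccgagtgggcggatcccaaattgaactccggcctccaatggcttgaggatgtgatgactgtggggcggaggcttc
Slc7a11, chr3:50443614-50443813, minus strand: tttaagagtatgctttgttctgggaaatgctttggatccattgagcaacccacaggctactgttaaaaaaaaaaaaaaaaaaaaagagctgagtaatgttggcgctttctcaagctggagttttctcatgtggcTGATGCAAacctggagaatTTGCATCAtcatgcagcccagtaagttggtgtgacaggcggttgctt

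In Asns the match began 23 bases before the gene start, in Atf3 110 bases, in Chac1 193 bases and in Pck2 103 bases before it. Slc7a11 held a pair of matches, on opposite strands, 66 and 47 bases before its start. A match is a stretch of letters, and binding of ATF4 was not measured here.

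p53 target genes were higher as well, though with smaller fold changes. p53 induces genes of cell cycle arrest, its own inhibitor MDM2 and death receptors. Of 24 tested members, 22 were higher in KD-Nap1l2-7d, 10 of them at an unadjusted p-value under 0.05 (3.72% of all genes), and 1 was lower at that level. The median log2 fold change was 0.47, and 18 members had non-overlapping libraries in the higher direction (21.0% of all genes). Mdm2 had 4054 and 2465 counts in NC-7d and 7046 and 5882 in KD-Nap1l2-7d (log2 fold change 0.99 ± 0.23). Cdkn1a, the gene of the kinase inhibitor p21, had 8086 and 6868 counts against 12286 and 11022 (log2 fold change 0.64 ± 0.22). Fas, a death receptor, had 507 and 482 counts against 850 and 746 (log2 fold change 0.69 ± 0.16). The groups were separated in all 3. Ccng1, cyclin G1, had a log2 fold change of 0.66 ± 0.20 and Phlda3, an inhibitor of AKT signalling, one of 0.28 ± 0.12. Sesn1, which restrains mTORC1 and is also induced by p53, had the opposite sign, with 3218 and 2815 counts against 2156 and 2244 (log2 fold change -0.46 ± 0.13). The median stayed between 0.38 and 0.62 when 1 library was left out. Fewer members had an unadjusted p-value under 0.05 without NC-7d replicate 2 or KD-Nap1l2-7d replicate 1, where this also held for all genes tested.

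Genes of glycolysis and the response to hypoxia had a similar median but a wide spread. Of 29 tested members, 25 were higher in KD-Nap1l2-7d (median log2 fold change 0.56). Non-overlapping libraries in that direction were seen for 21 (21.0% of all genes), yet an unadjusted p-value under 0.05 for 0. P4ha1, a hypoxia-induced prolyl hydroxylase of collagen, had 2157 and 1756 counts in NC-7d and 4513 and 3964 in KD-Nap1l2-7d (log2 fold change 1.12 ± 0.49). Gapdh had 30571 and 30502 counts against 38974 and 51068, a log2 fold change of 0.56 ± 0.57. In both genes the groups were separated. The fit shares its estimate of the spread with day 0, where KD-Nap1l2 replicate 1 lay below replicate 2 by a median log2 difference of -1.88 over the list. With only the libraries of day 7 in the fit, 19 members had an unadjusted p-value under 0.05 in the higher direction. In that fit 696 of all genes did, against 501 in the fit of all 8 libraries.

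**Figure D3:**
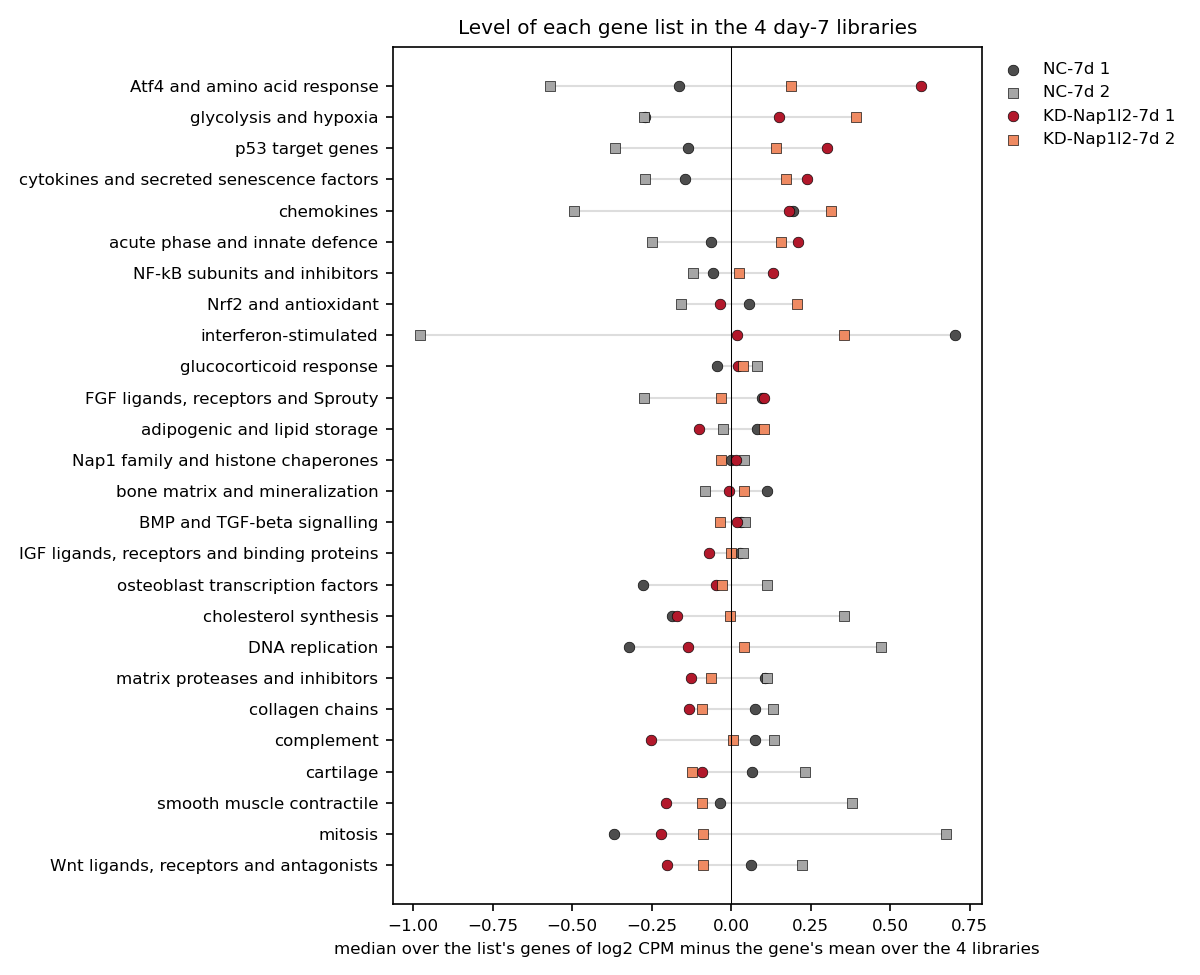
Median log2 level of each gene list in each of the 4 libraries of day 7, as a deviation from the list's mean over these libraries. The Atf4 and amino acid response lies below 0 in both NC-7d libraries and above 0 in both KD-Nap1l2-7d libraries, whereas the interferon-stimulated genes and the mitosis genes are split between the NC-7d libraries.

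Secreted inflammatory factors were higher in part of their members. Of 33 tested cytokines and secreted senescence factors, 22 were higher in KD-Nap1l2-7d, 8 of them at an unadjusted p-value under 0.05 (3.72% of all genes) and 0 lower at that level, and the median log2 fold change was 0.42. Il6, the cytokine interleukin 6, had 31.0 and 14.4 counts in NC-7d and 78.2 and 78.3 in KD-Nap1l2-7d (log2 fold change 1.79 ± 0.40). Both KD-Nap1l2-7d values were nearly equal and lay above both controls. The most abundant members differed less. Serpine2, a protease inhibitor, had 25214 and 25777 counts against 29999 and 31091 and was separated by group (log2 fold change 0.26 ± 0.18), whereas Spp1 (osteopontin) and Il1rn (the interleukin 1 receptor antagonist) overlapped, with log2 fold changes of 0.26 and -0.30. Of 16 tested chemokines, 13 were higher, 3 of them at an unadjusted p-value under 0.05 and 1 lower, with a median of 0.34. Ccl20, which attracts lymphocytes and dendritic cells, had 18.2 and 12.5 counts against 41.1 and 37.6 (log2 fold change 1.36 ± 0.42), and Ccl7, which attracts monocytes, had 2659 and 2400 against 3292 and 3179 (0.36 ± 0.11). Cxcl12, the most abundant chemokine, had a log2 fold change of -0.40 ± 0.24. The chemokine median ran from 0.07 without NC-7d replicate 2 to 0.86 without NC-7d replicate 1. The cytokine median was 0.28 when NC-7d replicate 2 was left out. The 8 cytokines at an unadjusted p-value under 0.05 were 5 when either NC-7d replicate 2 or KD-Nap1l2-7d replicate 1 was left out, where the 3 chemokines were 1, and the 3 chemokines were 7 without NC-7d replicate 1.

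Acute phase and innate defence genes gave 15 higher and 7 lower of 22 tested, 6 of them higher at an unadjusted p-value under 0.05 and 0 lower, and the median log2 fold change was 0.30. Lcn2, lipocalin 2, an iron-siderophore binding protein of innate defence, had 20644 and 18620 counts in NC-7d and 46624 and 35217 in KD-Nap1l2-7d (log2 fold change 1.06 ± 0.24). Saa3, a serum amyloid A protein, had 244 and 173 counts against 1053 and 447 (log2 fold change 1.85 ± 0.50), and Serping1, the inhibitor of complement C1, had 18.2 and 21.1 against 63.2 and 59.5 (1.63 ± 0.29). All 3 were separated by group. Hp (haptoglobin), also abundant, was separated too, with 2282 and 2563 counts against 4404 and 3374 (log2 fold change 0.68 ± 0.45), while Cp (ceruloplasmin) overlapped (0.14 ± 0.23). The 6 genes at an unadjusted p-value under 0.05 were 2 when KD-Nap1l2-7d replicate 1 was left out and 4 to 7 when another library was.

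The NF-κB subunits and their inhibitors themselves showed small differences. Of 24 tested members, 17 were higher, 5 of them at an unadjusted p-value under 0.05 and 0 lower at that level, and the median log2 fold change was 0.20. Relb, the subunit of the non-canonical pathway, had 340 and 324 counts in NC-7d and 473 and 473 in KD-Nap1l2-7d (log2 fold change 0.51 ± 0.12). Nfkbib (an inhibitor) and Bcl3 (a nuclear cofactor) had log2 fold changes of 0.50 ± 0.13 and 0.56 ± 0.17. Rela, the gene of p65, had 1455 and 1608 counts against 1575 and 1535, so the groups overlapped (log2 fold change 0.02 ± 0.12). Nfkbia, an inhibitor that NF-κB itself induces, had 3271 and 3776 against 3257 and 3240 (-0.12 ± 0.16). The 5 members at an unadjusted p-value under 0.05 were 2 when either KD-Nap1l2-7d library was left out, and the median was 0.12 when KD-Nap1l2-7d replicate 1 was. The level of an mRNA does not report the activity of NF-κB, which is set largely by the location of its proteins.

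Promoters of the inflammatory genes were searched for the NF-κB motif in the same windows. It was found in 9 of 16 acute phase genes (56.2%), 4 of 11 chemokines (36.4%), 5 of 22 cytokines (22.7%) and 8 of 20 genes of NF-κB itself (40%), against 1311 of 10651 tested genes (12.3%) and 3 of 40 genes of the Atf4 list (7.5%). These lists hold many known NF-κB targets, so here too the shares describe the lists and not these libraries, and windows were found for 16 of 22 acute phase genes, 11 of 16 chemokines, 22 of 33 cytokines and 20 of 24 genes of NF-κB itself. The CARE element was in 0 of the chemokines, cytokines and acute phase genes and in 2 of the 20 genes of NF-κB itself (10%). The 200 bases before the start of Cxcl1 are shown because this gene was the higher gene with the smallest p-value, with overlapping matches on both strands in capitals, 71 and 70 bases before the start (RefSeq, GRCm38.p6).
Cxcl1, chr5:90891045-90891244, plus strand: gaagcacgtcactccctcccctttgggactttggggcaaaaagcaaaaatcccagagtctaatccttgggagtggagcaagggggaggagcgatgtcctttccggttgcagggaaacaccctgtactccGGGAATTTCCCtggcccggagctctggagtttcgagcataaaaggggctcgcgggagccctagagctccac

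Apart from 1 interferon-stimulated gene that was higher, interferon-stimulated genes and genes of mitosis did not separate by group, and the NC-7d libraries differed from each other. Of 44 tested interferon-stimulated genes, 30 were higher and 14 lower, 0 of them at an unadjusted p-value under 0.05, and the median log2 fold change was 0.09. Ifit3, an interferon-induced antiviral protein, had 37175 and 5623 counts in NC-7d and 15883 and 25574 in KD-Nap1l2-7d. Bst2, tetherin, which holds budding viruses at the cell surface, had 10622 and 2231 counts against 6356 and 9173. In both genes the KD-Nap1l2-7d libraries fell between the controls. Over the list, NC-7d replicate 1 lay above replicate 2 by a median of 1.65 on the log2 scale. The median log2 fold change ran from -0.52 without NC-7d replicate 2 to 1.18 without NC-7d replicate 1. All 36 tested mitosis genes were lower, but none was separated by group and 0 had an unadjusted p-value under 0.05 (median log2 fold change -0.40). Kif20a, a kinesin of cytokinesis, had 960 and 2008 counts in NC-7d and 976 and 971 in KD-Nap1l2-7d. Top2a, the topoisomerase of dividing cells, had 2852 and 4901 against 3138 and 3242. NC-7d replicate 2 alone was high, and the mitosis median was 0.23 without it and -0.81 without NC-7d replicate 1. Of 34 DNA replication genes, 31 were lower with a median of -0.17 and 0 at an unadjusted p-value under 0.05, and their median ran from -0.52 without NC-7d replicate 1 to 0.30 without NC-7d replicate 2.

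Matrix genes were lower in more members than higher. Of 24 tested collagen chains, 16 were lower, 13 of them with non-overlapping libraries (21.0% of all genes) and 3 at an unadjusted p-value under 0.05 (4.13% of all genes), and the median log2 fold change of -0.22 stayed between -0.24 and -0.19 when 1 library was left out. Col23a1, a transmembrane collagen, had 779 and 749 counts in NC-7d and 269 and 347 in KD-Nap1l2-7d (log2 fold change -1.31 ± 0.26). Col15a1, a basement membrane collagen, had 1080 and 3843 counts against 559 and 878 (log2 fold change -1.78 ± 0.51), and its controls differed widely from each other. The most abundant chains differed little, with log2 fold changes of -0.22 ± 0.26 for Col1a1, -0.32 ± 0.20 for Col1a2 and -0.15 ± 0.16 for Col6a1. Matrix proteases and their inhibitors gave 19 lower and 7 higher of 26 (median log2 fold change -0.22), with 3 lower and 1 higher at an unadjusted p-value under 0.05. Mmp14, a membrane-bound collagenase, had 25014 and 21731 counts against 16262 and 17671 (log2 fold change -0.46 ± 0.16), and Adamts12 one of -0.63 ± 0.17. Timp3, a matrix-bound inhibitor of these proteases, was the member higher at that level, with 23473 and 20179 counts against 35662 and 30687 (log2 fold change 0.60 ± 0.25). The 3 proteases and inhibitors lower at that level were 6 when NC-7d replicate 2 was left out and 1 when KD-Nap1l2-7d replicate 1 was.

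Smooth muscle contractile genes gave 17 lower and 4 higher of 21, with 4 lower and 1 higher at an unadjusted p-value under 0.05 and a median log2 fold change of -0.36, which was -0.063 when NC-7d replicate 2 was left out and -0.55 when NC-7d replicate 1 was. Tpm2, a tropomyosin, had 2474 and 3058 counts in NC-7d and 1733 and 1996 in KD-Nap1l2-7d (log2 fold change -0.57 ± 0.20), and Mylk, the myosin light chain kinase, had 2947 and 2813 against 1831 and 2236 (-0.50 ± 0.20). Des, desmin, went the other way, with 71.7 and 102 counts against 181 and 144 (log2 fold change 0.91 ± 0.32). Acta2, smooth muscle actin, had 11949 and 24182 counts against 10088 and 14220, so the groups overlapped. Of 16 cartilage genes, 10 were lower, 3 of them at an unadjusted p-value under 0.05 (4.13% of all genes), with a median of -0.24. The 4 contractile genes lower at that level were 9 without NC-7d replicate 1 and 0 when NC-7d replicate 2 or KD-Nap1l2-7d replicate 1 was left out, and the 3 cartilage genes were 1 in both of the latter cases. Col9a1, a cartilage collagen, had 180 and 125 counts against 77.2 and 72.1 (log2 fold change -1.03 ± 0.28), while Sox9, the master regulator of cartilage, had 4513 and 5748 against 4490 and 4703 (-0.16 ± 0.17). Beside Col9a1, the cartilage genes lower at that level were Col9a2 and Cnmd, which had few counts. Col9a2 had 11.8 and 19.2 against 2.0 and 5.22, and Cnmd had 16.1 and 59.4 against 2.0 and 8.35.

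Wnt components and the ligands Igf1 and Igf2 were among the signalling genes that were lower. Of 30 tested Wnt ligands, receptors and antagonists, 21 were lower, 14 of them with non-overlapping libraries (21.0% of all genes). At an unadjusted p-value under 0.05, 6 were lower (4.13% of all genes) and 0 higher, and the median log2 fold change was -0.41. The receptor Fzd2 had 2572 and 2444 counts in NC-7d and 1727 and 2002 in KD-Nap1l2-7d (log2 fold change -0.43 ± 0.13). The co-receptor Lrp6 had 3470 and 3246 counts against 2678 and 2432 (log2 fold change -0.39 ± 0.13). The antagonists Nkd2 and Sfrp1 were lower too, with log2 fold changes of -0.77 ± 0.23 and -0.51 ± 0.19, so that receptors and inhibitors of the pathway had the same sign. The abundant co-receptor Lrp5 had 5430 and 4628 counts against 5080 and 4394 (log2 fold change -0.09 ± 0.14). When NC-7d replicate 2 was left out, the Wnt median was -0.19 and the 6 members at an unadjusted p-value under 0.05 were 3, and leaving out KD-Nap1l2-7d replicate 1 or 2 gave 2 or 3.

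Among 17 IGF ligands, receptors and binding proteins, 8 were higher and 9 lower, and the median log2 fold change was -0.07. At an unadjusted p-value under 0.05, 2 were higher and 3 lower (3.72% and 4.13% of all genes), so the difference lay in single members. Beside Igf1, the ligand Igf2 had 4669 and 6211 counts in NC-7d and 2343 and 3729 in KD-Nap1l2-7d (log2 fold change -0.84 ± 0.26). The receptor Igf2r, which clears IGF2, had a log2 fold change of 0.08 ± 0.17 and the abundant binding protein Igfbp7 one of 0.12 ± 0.19. Igfbp3, a binding protein of IGFs and also among the lower members at that level (log2 fold change -2.11 ± 0.70), had under 15 normalized counts in each of the 4 libraries of day 7. Pappa and Pappa2, proteases that free IGFs from their binding proteins and were chosen after their values were seen, had log2 fold changes of 1.44 ± 0.51 and 1.65 ± 0.57.

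Genes of the osteoblast programme showed no common direction. Of 17 tested osteoblast transcription factors, 5 were higher and 12 lower (median log2 fold change -0.15, which was 0.48 without NC-7d replicate 2), and 2 were higher at an unadjusted p-value under 0.05. These were Atf4 and Dlx5, a homeobox factor upstream of bone genes, which had 152 and 163 counts in NC-7d and 229 and 207 in KD-Nap1l2-7d (log2 fold change 0.47 ± 0.18). Runx2 had 1174 and 1047 counts against 976 and 1023 (log2 fold change -0.15 ± 0.14). Twist2, which restrains RUNX2, had 851 and 781 against 548 and 678 (-0.41 ± 0.18). Id1 and Id3, targets of BMP signalling, had overlapping groups, with 2610 and 2807 counts in NC-7d replicate 2 alone. Sp7 had counts of 1 and 5 in NC-7d against 5 and 1 in KD-Nap1l2-7d, and Alpl, alkaline phosphatase, counts of 5 and 4 against 6 and 10, both too few to be tested. Of 24 genes of bone matrix and mineralization, 10 were higher and 14 lower, 2 and 1 of them at an unadjusted p-value under 0.05 (median log2 fold change -0.05). Leaving out NC-7d replicate 1 gave 6 higher at that level and a median of 0.12, and leaving out NC-7d replicate 2 gave 5 lower. Slc20a1, a phosphate importer, had 547 and 465 counts against 753 and 732 (log2 fold change 0.55 ± 0.18), and Ogn, a leucine-rich proteoglycan, had 28390 and 18277 against 16478 and 15367 (-0.55 ± 0.21). Spp1 had 97020 and 36976 counts against 81655 and 78559, Mgp (matrix Gla protein) 25027 and 11280 against 24045 and 35349, and Bgn (biglycan) a log2 fold change of 0.05 ± 0.16. The KD-Nap1l2-7d libraries lay between the controls for Spp1, and the groups overlapped for Mgp. Bglap2 had 10.7 and 0 counts against 36.1 and 14.6, and Bglap, osteocalcin, had estimated counts of 3 and 10 in NC-7d against 13 and 22 in KD-Nap1l2-7d (log2 fold change 1.45 ± 1.09). Both genes were separated by group at these low counts, and reads of the near-identical Bglap genes can be shared.

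Nrf2 controls genes of glutathione synthesis and other antioxidant defences. Of 27 Nrf2 and antioxidant genes, 7 were higher and 1 lower at an unadjusted p-value under 0.05 (3.72% and 4.13% of all genes), and the median log2 fold change was 0.14. Leaving out NC-7d replicate 2 took the 7 to 0, and leaving out KD-Nap1l2-7d replicate 1 or replicate 2 took them to 4 or 1. Of 24 genes of the glucocorticoid response, 4 were higher and 1 lower at that level (median 0.01), and the 4 were 2 when NC-7d replicate 2 or KD-Nap1l2-7d replicate 1 was left out. Of 23 adipogenic genes 4 were higher and 3 lower (median -0.02), and the 4 were 0 when NC-7d replicate 2 was left out and 1 when KD-Nap1l2-7d replicate 1 was. Of 30 genes of BMP and TGF-β signalling 2 were higher and 2 lower (median -0.06), and of 19 FGF ligands, receptors and Sprouty genes 1 was higher and 2 lower (median -0.0029). Leaving out NC-7d replicate 1 gave 7 lower BMP and TGF-β genes and 6 higher FGF genes. Of 26 genes of cholesterol synthesis 1 was lower (median -0.16). Leaving out NC-7d replicate 1 gave 9 lower and a median of -0.46, while leaving out NC-7d replicate 2 turned the median to 0.098. Of 19 complement genes 1 was higher and 1 lower (median -0.24, from -0.39 without KD-Nap1l2-7d replicate 2 to -0.12 without NC-7d replicate 1), and of 21 members of the Nap1 family and other histone chaperones 0 were higher or lower at that level (median -0.05).

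**Figure D4:**
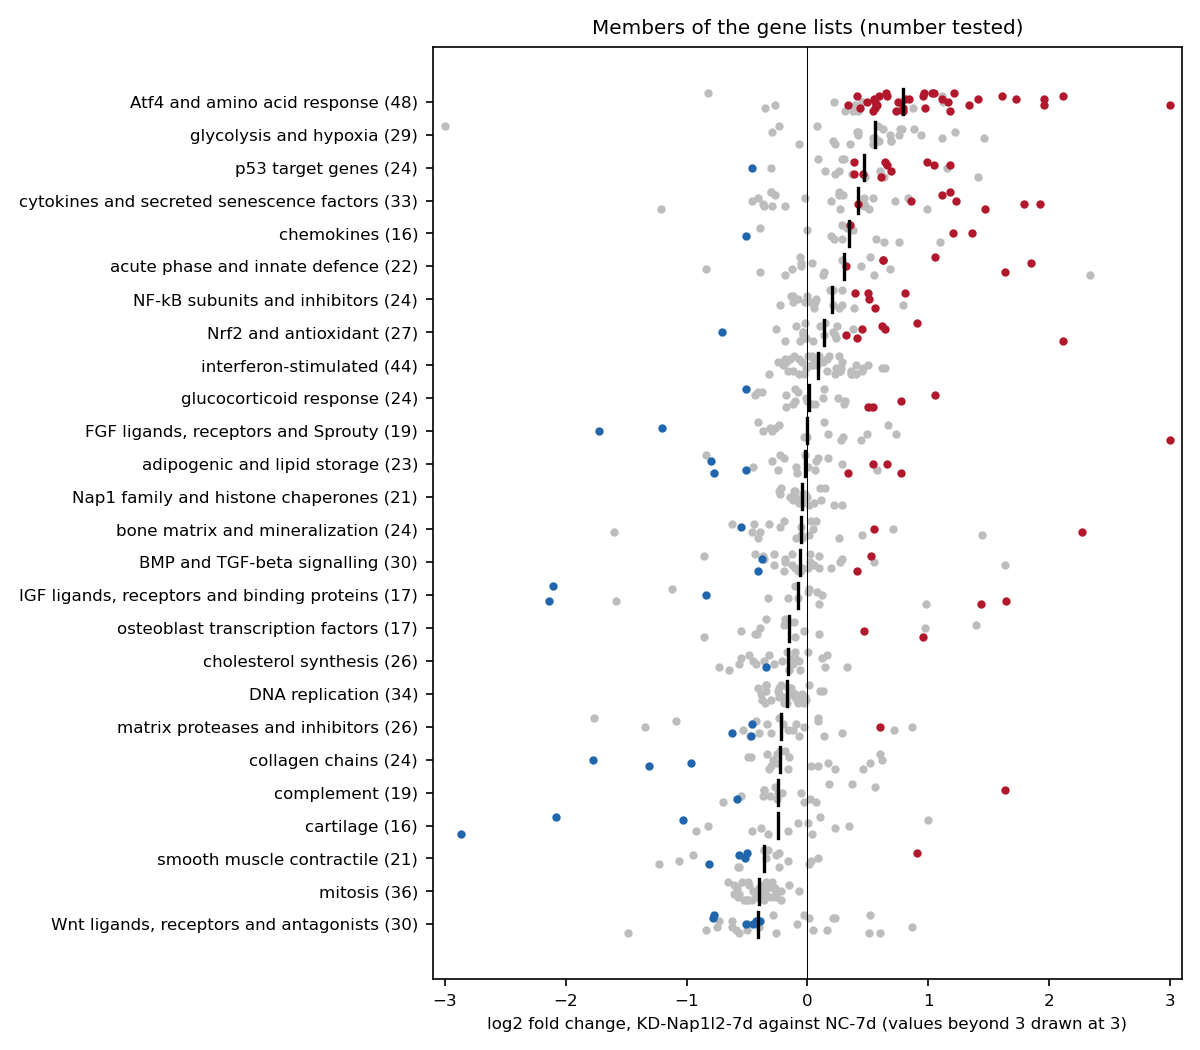
Log2 fold change of KD-Nap1l2-7d against NC-7d for each tested member of the gene lists (1 point per gene), with the members at an unadjusted p-value under 0.05 in red (higher) and blue (lower) and the median of each list in black. The Atf4 and amino acid response has the highest median, at 0.79.

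Day 0 libraries of the same cells were used to ask whether the day 7 differences were already there before induction. The 2 comparisons share no library. Of 11280 well-counted genes, 516 (4.57%) differed by more than 2-fold between the KD-Nap1l2 libraries of day 0. Between the NC libraries 138 (1.22%) did. Of the 501 genes higher at day 7 at an unadjusted p-value under 0.05, 367 (73.3%) were also higher at day 0, where 51.5% of all genes tested were higher. Of the 556 genes lower at day 7, 391 (70.3%) were also lower at day 0. At day 0, 946 genes (7.02%) were higher and 906 (6.73%) lower at an unadjusted p-value under 0.05. Among them were 136 of the genes higher and 122 of the genes lower at day 7, while 9 and 28 had the opposite direction at day 0. Across genes, which are not independent replicates, the Pearson correlation of the log2 fold changes was 0.266. The Atf4 and amino acid list had median log2 fold changes of 0.55 at day 0 and 0.79 at day 7, and the p53 targets had medians of 0.38 and 0.47. For Asns the values were 0.93 and 1.17, for Cdkn1a 0.94 and 0.64 and for Atf4 itself 0.25 and 0.96.

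The difference between the 2 comparisons was tested in the same model. By the quasi-likelihood test of edgeR (Benjamini-Hochberg adjustment), 0 genes (0%) passed, with a smallest adjusted p of 0.109, and the unadjusted p-value was under 0.05 for 948 genes (7.04%), while DESeq2 called 98. Igf1 had a log2 fold change of 0.83 at day 0 and -2.14 at day 7, a difference of -2.97 ± 0.47 (SE). Col27a1 went from 0.38 to -0.96, a difference of -1.34, and Fbn2, a microfibril protein, from 1.14 to -0.85. Lcn2 had -0.91 at day 0 and 1.06 at day 7, a difference of 1.97. These genes had opposite signs on the 2 days. Ccbe1, a secreted protein of lymphatic development, had -3.88 at day 0 and -0.56 at day 7, and its difference of 3.32 ± 0.33 was the one with the smallest adjusted p. The chemokines Ccl2 and Ccl7 were at -1.28 and -0.84 at day 0 and at 0.19 and 0.36 at day 7. Cfb (complement factor B), Angpt2 (an angiopoietin) and H2-Ab1 (an MHC class II chain) were also lower at day 0, at -2.13, -2.81 and -6.51, and nearer to 0 at day 7, at 0.56, -0.43 and -0.36. H2-Ab1 had 158 and 325 normalized counts in NC against 0.979 and 4.16 in KD-Nap1l2. At day 7 it had 7.49 and 9.59 in NC-7d against 5.01 and 8.35 in KD-Nap1l2-7d. Angpt2 had 514 and 355 in NC against 66.5 and 57.2, and 56.7 and 62.3 in NC-7d against 38.1 and 50.1. In both genes the NC-7d level was far below NC, whereas in Cfb the shRNA level rose, from 60.7 and 48.9 to 244 and 256. Ppp1r1b and Dapk1 had negative differences between the days, of -1.60 and -1.19.

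Among the gene lists, the medians of the 2 days lay furthest apart in the interferon-stimulated genes, at a log2 fold change of -1.98 at day 0 and 0.09 at day 7, and 26 of 44 members had a higher value at day 7 at an unadjusted p-value under 0.05 for the difference (7.04% of all genes in either direction). The day 7 value rests on NC-7d libraries that differ widely in these genes. The KD-Nap1l2 libraries of day 0 differed as well, with replicate 1 above replicate 2 by a median of 1.01 on the log2 scale. The collagen chains had a median of 0.53 at day 0 and -0.22 at day 7, with 7 of 24 members lower in the difference at that level, and the cartilage genes 0.41 and -0.24, with 9 of 16. The chemokines had -0.39 and 0.34. At day 0 the median log2 difference of KD-Nap1l2 replicate 1 from replicate 2 was -0.47 in the collagen chains and 0.46 in the chemokines. It was 0.04 in the cartilage genes.

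**Figure D5:**
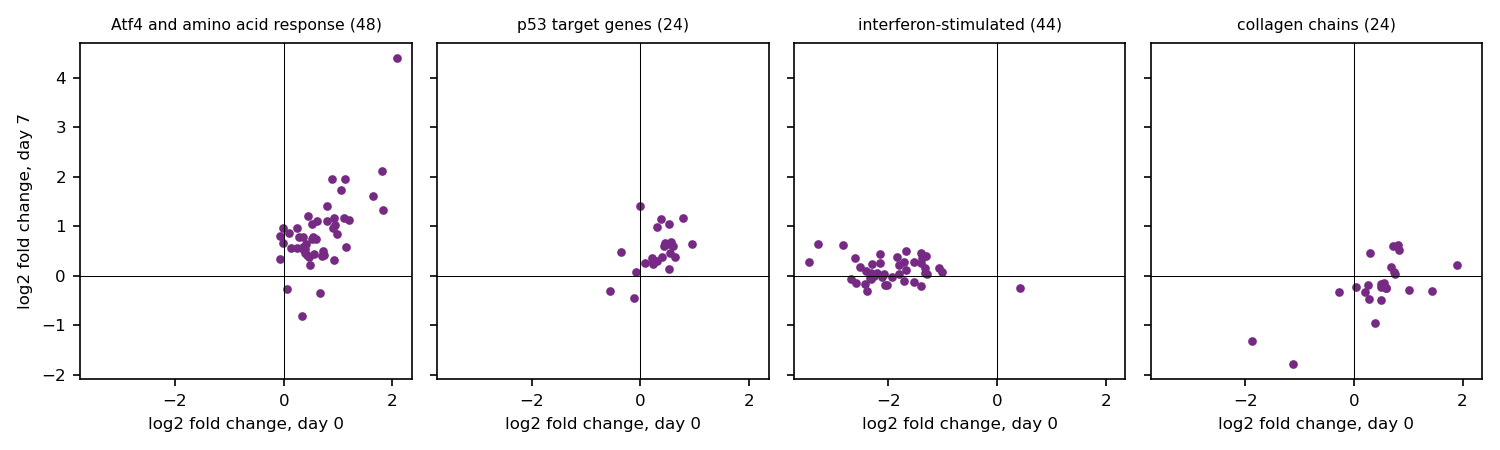
Log2 fold change at day 7 (vertical axis) against that at day 0 (horizontal axis) for the members of 4 gene lists, 1 point per gene. Most Atf4 and p53 list members lie above 0 on both axes, the interferon-stimulated genes lie far to the left of 0 at day 0 (median -1.98), and most collagen chains lie right of 0 at day 0 and below 0 at day 7.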

How the data were processed

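RNA was extracted with Trizol, and libraries were prepared and sequenced by BGI. Per the labels, the submitters' processing notes name RSEM, Bowtie2 and BWA and the build GRCm38.p6, without roles. The authors deposited an estimated count and an FPKM per gene and library, and 41.1% of genes have a non-whole count in some library. Deposited tables of the authors' own comparisons, with fold changes, p-values and q-values, were not used. Counts were rounded to whole numbers, filtered by filterByExpr, scaled by TMM and fitted with edgeR 4.0.16 (R 4.3.3; quasi-likelihood test, Benjamini-Hochberg adjustment, threshold 0.05) over all 8 libraries, which then share one estimate of the spread. The 7-day contrast and its difference from the 0-day contrast were tested. The SE of a log2 fold change was derived from the F statistic of that test. It thus rests on the spread shared by all 8 libraries and not on the 4 libraries of day 7 alone. Normalized counts are scaled to the mean effective library size of 18249592. Genes left out held 0.0444% of counts. The total per library was 17420284 to 19427359, a count of 0 allows up to 3 counts, and such limits cover counting error only.

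Named genes were Nap1l2 and the osteogenic genes the study names, the 15 higher and 15 lower genes with the smallest p, at least 50 mean normalized counts and no overlap between groups, the 3 most abundant and the 3 with the smallest p of each described list, and the 10 with the smallest p in the difference. A gene among the 15 lower ones is not described here. Members and lists were chosen with earlier results of these data known. Libraries of a group are not labelled as separate cultures, so p-values measure only the spread between these libraries, which may be technical. With 2 libraries against 2, an exact two-sided permutation test cannot go below 0.333. As alternatives, each library of day 7 was left out for the 7-day contrast, and each of all 8 libraries for the difference. Leaving out KD-Nap1l2 replicate 2 of day 0 for the 7-day contrast was added after seeing the data. The libraries of day 7 alone, a replicate block, a stricter filter (10 counts in each library) or none and RLE scaling were also tried. So were DESeq2 1.42.0, limma 3.58.1 on log2-scaled FPKM (pseudocount 1 or 0.1) and a 2-fold threshold. The test was checked on simulated data. Promoter windows came from RefSeq (GRCm38.p6). Figures were drawn with Python 3.11.15 and matplotlib 3.10.9.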

Additional observations from a re-analysis of the deposited data

How the results depend on the processing

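The number of genes past the adjusted threshold between KD-Nap1l2-7d and NC-7d was 79 with DESeq2's Wald test, and it was 0 to 1 when 1 library was left out. The 1 gene was Ly6e without NC-7d replicate 1, with a log2 fold change of 3.60 and an adjusted p of 0.0174 by edgeR's quasi-likelihood test, chosen after its values were seen. It was 0 in the other alternatives. Genes at an unadjusted p-value under 0.05 numbered 159 (without KD-Nap1l2-7d replicate 1) to 818 (without NC-7d replicate 1) for the higher direction, with 301 without NC-7d replicate 2, and 164 to 890 for the lower direction with the same libraries left out. For the difference between the days, DESeq2 called 98 genes, edgeR with no filter on low counts called 1 (Ccbe1, adjusted p = 0.031), and leaving out 1 library gave 0 to 19, the 19 without NC-7d replicate 1. The causes were not tested.

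Whether same-numbered libraries form pairs is not given by the labels. They deviated together with a correlation of -0.136 at day 0 and 0.124 at day 7. With only 2 pairs each, these values cannot decide whether the samples were paired. With a replicate block, 0 genes were called, and the fit of day 7 alone gave 828 genes higher at an unadjusted p-value under 0.05 against 696 without the block. A crossed pairing at day 0, chosen after seeing the data, gave 0 genes in the difference.

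Directions of single genes turned when 1 library was left out. The log2 fold change ran from -0.64 to 0.48 for Id1, -1.03 to 0.59 for Id3, -0.041 to 0.14 for Bgn, -0.28 to 1.11 for Spp1, -0.32 to 0.027 for Sox9, -0.049 to 0.097 for Rela, -0.58 to 0.037 for Il1rn and -0.14 to 0.50 for Cp. It ran from -0.45 to 1.80 for Bst2, -0.0036 to 1.30 for H2-K1, -1.02 to 0.32 for Ube2c, -0.62 to 0.35 for Birc5, -0.62 to 0.16 for Top2a, -1.04 to 0.021 for Kif20a, -1.07 to 0.083 for Cdc20 and -0.88 to 0.054 for Kif23. It ran from -0.47 to 0.071 for Col1a1, -0.69 to 0.67 for Mmp2, -0.021 to 0.24 for Igfbp7, -0.090 to 0.23 for Igf2r, -0.20 to 0.033 for Lrp5, -0.13 to 0.18 for Myl12a and -0.99 to 0.025 for Acta2. For Ifit3 it was -0.84 to 1.88, with 0.48 under both replicate blocks and 0.47 by limma with either pseudocount. For Nap1l2 it was -0.64 to 1.08, 0.0017 with RLE size factors, 0.0069 with day 7 alone, 0.064 and 0.061 with a replicate block and 0.0044 and 0.072 by limma. Runx2 was at 0.16 and 0.17 by limma on FPKM and below 0 in the count fits. Of the other values of named genes, 1630 kept their direction and side of the threshold, and 32 kept their direction and passed it.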

Other observations

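Some genes of cornified skin, blood and lung, chosen after their values were seen, had their counts almost only in the control libraries, and unevenly. Other genes examined with them, such as Krt10 and Sbsn, did not, with 61 to 110 and 103 to 374 counts in the shRNA libraries. Krt1, a keratin of the upper epidermis, had 17 and 14 estimated counts in NC, 115 and 0 in NC-7d, and 0 in all KD-Nap1l2 and KD-Nap1l2-7d libraries. Lor, loricrin of the cornified envelope, had 18 and 19 counts in NC, 40 and 0 in NC-7d, and 0 in the 4 shRNA libraries. Hbb-bs, a beta globin, had 6 and 11 counts in NC, 40 and 0 in NC-7d, and 0 in the shRNA libraries. Sftpc, a lung surfactant protein, had 12 and 14 counts in NC, 10 and 1 in NC-7d, and at most 1 in the shRNA libraries. Of the 4 libraries of day 7, NC-7d replicate 1 thus held nearly all counts of these 4 genes. The same library was the one with the highest interferon-stimulated genes, at a median log2 deviation of 0.70 over the list against -0.98 in NC-7d replicate 2, and whether these go together was not tested.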
